A study of Homo sapiens with 8 samples.

Results

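The genes described here drive or restrain the passage from G1 into S phase: the D cyclins *CCND2* and *CCND3*, the E cyclins *CCNE1* and *CCNE2*, the kinases *CDK2*, *CDK4* and *CDK6*, the inhibitors *CDKN1B* (p27) and *CDKN2A* (p16INK4a and p14ARF), and the retinoblastoma gene *RB1*. These 10 genes were taken by symbol from the 60332 genes of the deposited expression matrix. Where a symbol occurred more than once, the highest-mean entry was taken. Apart from that the rule uses no measured values, but the genes were chosen with earlier results of these data known. All 10 were found, and all 10 passed the filter on low values (FPKM averaging 1 or more across libraries), as did 15175 genes in all.

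RNA-seq libraries were made from RD-ES and SK-N-MC, a pair of established Ewing sarcoma cell lines, as control and eKD2 cells with 2 libraries per group and 8 libraries in all. All 4 groups were grown in the same medium. eKD2 cells had received a lentivirus for dCas9-KRAB, a cutting-dead Cas9 fused to a repressor domain, with a guide next to the GGAA microsatellite in the enhancer of *LOXHD1*. By the sample labels the controls had received the empty dCas9-KRAB virus, so they share the fusion protein and the puromycin selection, whereas the study's text names them parental. The virus was used at a multiplicity of infection of 10, with puromycin at 1 µg/ml over 3 days, and the cells were at most 5 passages past selection. The eKD2 cells of each line came from 1 guide and are selected pools, and each line stands for 1 tumour, so that a difference between the lines is a difference between these lines only. The values are FPKM (fragments per kilobase of transcript and per M mapped reads, where M stands for mega), scaled for transcript length and depth. Comparisons between libraries depend on this scaling, and results under other scalings are given at the end.

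In the textbook scheme, mitogens raise D cyclins, which bind CDK4 or CDK6 and start to phosphorylate RB1 and the related pocket proteins. Phosphorylated pocket proteins release E2F transcription factors, which switch on E cyclins and the genes of DNA replication, and cyclin E with CDK2 completes the phosphorylation of RB1. p16INK4a blocks CDK4 and CDK6, p27 blocks mainly cyclin E with CDK2, and p14ARF acts outside this chain by sparing p53 from MDM2. The scheme acts largely through protein modification, and RNA levels do not measure kinase activity.

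*LOXHD1*, the target of eKD2, was at 21.4 and 21.2 FPKM in the RD-ES controls, 1.04 and 1.02 in their eKD2 counterparts, 159 and 169 in the SK-N-MC controls, and 11.0 and 12.0 in theirs. It was therefore lower in each library labelled eKD2, with limma adjusted p-values of 1.1e-04 (RD-ES) and 3.7e-05 (SK-N-MC). All 8 Ewing sarcoma markers (among them *CD99*, *NKX2-2* and *NR0B1*) were detected, with summed levels of 805 to 947 FPKM (RD-ES) and 822 to 903 FPKM (SK-N-MC). Single markers differed between the lines behind these sums. *CD99* was at 482 to 586 FPKM in RD-ES and 201 to 243 in SK-N-MC, and *NR0B1* at 2.38 to 3.84 and 51.0 to 59.6. Between the controls, 4 of the 8 were higher and 2 lower in SK-N-MC (limma adjusted p under 0.05), beside 31.4% and 26.4% of all genes tested. Of 10 measured markers of other cells, 5 were listed at 0 in every library, *CD3E* among them, and the 10 summed to 0.467 to 1.23 FPKM in RD-ES and 22.6 to 27.3 FPKM in SK-N-MC. Most of the SK-N-MC sum was *PTPRC* (CD45, a leukocyte surface phosphatase), at 19.2 to 22.6 FPKM, which lay in the same range in its control and eKD2 libraries. *EPCAM*, an epithelial marker and the only other of the 10 to pass the filter, was at 0.300 to 0.971 FPKM in RD-ES and 2.96 to 4.54 FPKM in SK-N-MC. The part of *PTPRC* and *EPCAM* in the differences between the lines was not tested. Depth was not given with the values. Steps of whole reads among low values put it at 7.49 to 30.05 M reads per library, lowest in RD-ES eKD2 replicate 1 and highest in SK-N-MC control replicate 1.

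The members covered a wide range of levels within each line. In RD-ES control cells their means ran from 541 FPKM for *CDK4*, above 98.7% of the genes tested, to 1.501 FPKM for *CDK6*, above 12.8% of them. From the top the order was *CDK4*, *CDK2*, *CDKN1B*, *CDKN2A*, *CCND3*, *RB1*, *CCNE2*, *CCND2*, *CCNE1* and *CDK6*. Neighbours whose libraries overlapped, and whose order therefore does not exceed their spread, were *CDKN1B* with *CDKN2A*, *CDKN2A* with *CCND3*, and *RB1* with *CCNE2*. SK-N-MC control cells kept both ends of this order, from 320.3 FPKM for *CDK4* to 3.70 FPKM for *CDK6*, and differed in the middle. There, *CDKN2A* (73.3 FPKM) and *RB1* (58.6 FPKM) stood in places 3 and 4, ahead of *CCND3*, *CCND2* and *CDKN1B*, whose neighbouring pairs overlapped in their libraries.

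**Figure D1:**
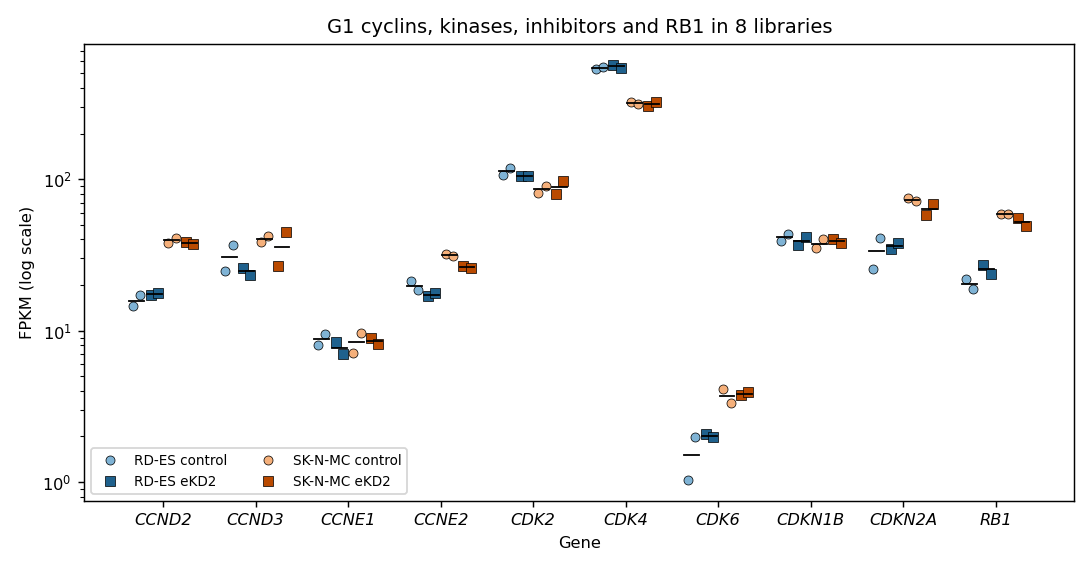
FPKM (log axis) of the 10 genes in each of the 8 libraries, with 2 points per group and a bar at the group mean. *CDK4* stands highest and *CDK6* lowest in all groups, and the orange SK-N-MC points lie above the blue RD-ES points for *CCND2*, *CCNE2*, *CDK6*, *CDKN2A* and *RB1* and below them for *CDK2* and *CDK4*.

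Between the control cells of the lines, 7 of the 10 members passed the test (limma, adjusted p under 0.05). *CCND2*, *CCNE2*, *CDK6*, *CDKN2A* and *RB1* were higher in SK-N-MC, and *CDK2* and *CDK4* were higher in RD-ES. Over all genes tested, 57.8% passed in this comparison (31.4% higher and 26.4% lower in SK-N-MC), so the 7 of 10 is near the background. The control libraries of the lines did not overlap for 8 of the 10 members, against 79.8% of all genes tested. The median log2 difference of the members was 0.53, beside 0.065 over all genes tested. This comparison uses the same control libraries as the eKD2 comparisons below.

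The D cyclins pair with CDK4 and CDK6. *CCND2* (chromosome 12, bases 4378937 to 4414519, plus strand of GRCh37) was at 14.5 and 17.1 FPKM in the RD-ES controls, 17.3 and 17.6 in their eKD2 counterparts, 37.7 and 41.1 in the SK-N-MC controls, and 38.3 and 37.2 in their eKD2 counterparts. Every SK-N-MC library was above every RD-ES library, and the control mean of 39.4 ± 2.47 FPKM in SK-N-MC was 2.498-fold that of 15.8 ± 1.85 in RD-ES (SD, n = 2 each). On the log2(FPKM + 1) scale the difference was 1.27 (SE 0.098, limma adjusted p = 1.5e-04). *CCND3* (chromosome 6, 41902672 to 42018095, minus strand) was at 24.8 and 36.6 FPKM in the RD-ES controls, 26.0 and 23.3 in their eKD2 counterparts, 38.2 and 42.5 in the SK-N-MC controls, and 26.7 and 44.7 in their eKD2 counterparts. Its replicates lay far apart, with a log2 SD within groups of 0.33, above 86.3% of genes, and the lines did not differ past the threshold (log2 difference 0.41, 95% interval -0.26 to 1.07, limma adjusted p = 0.24).

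Most D cyclin RNA came from *CCND1*, which is not one of the 10. It was at 580.2 and 718 FPKM in RD-ES control and 445 and 506 in SK-N-MC control, and it made up 93.7% and 93.0% of the summed D cyclin FPKM in the RD-ES controls against 85.4% and 85.8% in the SK-N-MC controls. *CCND2* and *CCND3* thus contributed 2.21% to 8.20% each, in every library. In the eKD2 cells *CCND1* was at 522 and 631 FPKM (RD-ES) and 403 and 463 FPKM (SK-N-MC), both ranges overlapping the controls, with log2 changes of -0.17 and -0.14 (limma adjusted p = 0.67 and 0.77). Its lower level in SK-N-MC control (log2 difference -0.44, limma adjusted p = 0.042) passed the threshold narrowly and lost the call in 8 of 14 alternative settings.

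The E cyclins activate CDK2 and are themselves E2F targets. *CCNE1* (chromosome 19, 30302898 to 30315219, plus strand), which no annotated gene overlaps, was at 8.04 and 9.45 FPKM in the RD-ES controls, 8.38 and 6.98 in their eKD2 counterparts, 7.10 and 9.70 in the SK-N-MC controls, and 8.97 and 8.10 in their eKD2 counterparts. All 4 groups overlapped, with a line difference of -0.063 on the log2 scale (95% interval -0.48 to 0.35, limma adjusted p = 0.78). *CCNE2* (chromosome 8) was at 21.3 and 18.4 FPKM in the RD-ES controls, 16.9 and 17.8 in their eKD2 counterparts, 32.2 and 31.2 in the SK-N-MC controls, and 26.6 and 26.1 in their eKD2 counterparts. The control mean was 1.60-fold higher in SK-N-MC (31.7 ± 0.722 against 19.8 ± 1.99 FPKM, SD, n = 2 each; log2 difference 0.65, SE 0.088, limma adjusted p = 0.0013). *CCNE2* was above *CCNE1* in every library, with a ratio of 1.95 to 2.64 in RD-ES and 2.96 to 4.54 in SK-N-MC.

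CDK4 and CDK6 are the partners of the D cyclins and CDK2 that of the E cyclins. *CDK4* (chromosome 12, 58141510 to 58149796, minus strand) was at 532 and 549 FPKM in the RD-ES controls, 569.8 and 544 in their eKD2 counterparts, 325 and 316 in the SK-N-MC controls, and 305 and 324 in their eKD2 counterparts. All RD-ES libraries lay above all SK-N-MC libraries, with control means of 541 ± 12.0 and 320.3 ± 6.49 FPKM (SD, n = 2 each), 1.69-fold apart (log2 difference -0.75, SE 0.055, limma adjusted p = 1.2e-04). Its replicates lay close together, with a log2 SD within groups of 0.044, smaller than in all but 3.54% of genes tested. *CDK6* (chromosome 7, 92234235 to 92465887, minus strand) was at 1.03 and 1.97 FPKM in the RD-ES controls, 2.07 and 1.99 in their eKD2 counterparts, 4.10 and 3.30 in the SK-N-MC controls, and 3.75 and 3.92 in their eKD2 counterparts. The control mean was 2.47-fold higher in SK-N-MC (log2 difference 0.93, SE 0.21, limma adjusted p = 0.010), a call lost without SK-N-MC control replicate 1 (adjusted p = 0.058). In the sum of *CDK4* and *CDK6* FPKM, *CDK6* made up 0.193% to 0.364% in RD-ES and 1.04% to 1.25% in SK-N-MC.

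*CDK2* (chromosome 12, 56360565 to 56366573, plus strand) was at 105.9 and 119 FPKM in the RD-ES controls, 105.5 and 104 in their eKD2 counterparts, 80.8 and 90.2 in the SK-N-MC controls, and 80.2 and 97.0 in their eKD2 counterparts. The RD-ES control mean was 1.32-fold higher (log2 difference -0.39, SE 0.11, limma adjusted p = 0.027). This call was lost without RD-ES control replicate 2 (adjusted p = 0.13), without SK-N-MC control replicate 1 (0.13), without SK-N-MC control replicate 2 (0.051) and when low genes were kept (0.052).

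The promoter of *CDK4*, the most abundant of the 10, is shown because it is the only one of the 7 genes with an entry in the RefSeq promoter table whose upstream bases hold the E-box CACGTG, the palindrome that MYC with MAX binds. The table (GRCh38.p14) held 11 entries for 7 of the 10 genes, and *CCND2*, *CCNE2* and *CDK2* had none. The single *RB1* entry belongs to a start at base 49050586 (GRCh37), inside the gene, and the window at the outer start of *RB1* was not searched. An exact match places the 250 bases before the *CDK4* start at chr12:58146094-58146343 of GRCh37 (minus strand), with the motif in capitals:
CDK4: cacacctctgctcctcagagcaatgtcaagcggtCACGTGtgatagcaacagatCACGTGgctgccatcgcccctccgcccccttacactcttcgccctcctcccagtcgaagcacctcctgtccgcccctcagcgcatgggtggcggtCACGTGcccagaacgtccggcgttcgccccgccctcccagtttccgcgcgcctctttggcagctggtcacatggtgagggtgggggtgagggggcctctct
The 3 copies lie at bases -216 to -211, -196 to -191 and -101 to -96 from the start. CACGTG, read on either strand, was present in 7.26% of the 35116 promoter entries, each taken from 250 bases before to 50 after a start, and in 2 of the 11 entries of these genes. The other was a *CDK6* entry, with 1 copy at bases 30 to 35 after its start. The E2F sites TTTCGCGC and TTTGGCGC (searched together, 1.15% of all entries), the ETS site CCGGAAGT (4.14%) and a pair of GGAA repeats, GGAAGGAA (3.67%), were in 0 of the 11. A match of letters is a description of the window and not a binding site.

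Among the inhibitors, *CDKN2A* (chromosome 9, 21967751 to 21995300, minus strand) was at 25.7 and 41.0 FPKM in the RD-ES controls, 34.6 and 37.9 in their eKD2 counterparts, 75.3 and 71.2 in the SK-N-MC controls, and 57.7 and 68.5 in their eKD2 counterparts. All SK-N-MC libraries lay above all RD-ES libraries, and the control mean was 2.20-fold higher there (73.3 ± 2.89 against 33.4 ± 10.8 FPKM, SD, n = 2 each; log2 difference 1.15, SE 0.21, limma adjusted p = 0.0047). The value per gene sums transcripts from separate starts that encode p16INK4a and p14ARF in different reading frames, and so does not say which was present. Both starts are in the RefSeq table, and the 250 bases before each are shown because each precedes the start of one of these products. They match chr9:21974857-21975106 (the inner start, p16INK4a) and chr9:21995324-21995573 (the outer start, p14ARF) of GRCh37 on the minus strand. Neither holds any of the motifs searched, so neither has capitals:
CDKN2A inner start: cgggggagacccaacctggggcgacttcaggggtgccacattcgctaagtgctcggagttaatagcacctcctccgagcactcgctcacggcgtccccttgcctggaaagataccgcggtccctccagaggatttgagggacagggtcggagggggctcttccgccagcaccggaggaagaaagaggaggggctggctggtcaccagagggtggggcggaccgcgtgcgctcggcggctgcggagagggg
CDKN2A outer start: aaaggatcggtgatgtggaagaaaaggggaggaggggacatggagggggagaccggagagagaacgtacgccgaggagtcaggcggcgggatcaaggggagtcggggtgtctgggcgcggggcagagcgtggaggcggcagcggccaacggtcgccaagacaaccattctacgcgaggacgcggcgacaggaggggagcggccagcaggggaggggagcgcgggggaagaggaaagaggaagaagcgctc
Both windows are 66.8% G and C.

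The neighbours of *CDKN2A* at 9p21 are often lost together with it in tumours. *MTAP*, an enzyme of methionine salvage, was at 27.1 and 26.9 FPKM in the RD-ES controls, 25.1 and 21.3 in their eKD2 counterparts, 51.5 and 60.9 in the SK-N-MC controls, and 55.9 and 52.8 in their eKD2 counterparts, so it was detected in every library and was higher in SK-N-MC (log2 difference 1.02, limma adjusted p = 6.1e-04). *CDKN2B*, which encodes p15INK4b, was listed at 0 in every library. The antisense RNA *CDKN2B-AS1*, which overlaps *CDKN2A* on the opposite strand, was at 0.545 to 1.90 FPKM in RD-ES and 9.86 to 14.3 FPKM in SK-N-MC (control log2 difference 2.58, limma adjusted p = 0.0011). The library kit did not keep strand, so reads from their shared bases cannot be told apart. Of the 5 neighbours listed, 2 passed the filter, both higher in SK-N-MC and neither called in an eKD2 comparison (limma adjusted p of 0.51 or more for both genes in each line).

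*CDKN1B* (chromosome 12, 12838432 to 12875303, plus strand) was at 39.4 and 43.6 FPKM in the RD-ES controls, 36.7 and 41.5 in their eKD2 counterparts, 34.9 and 40.1 in the SK-N-MC controls, and 40.4 and 37.9 in their eKD2 counterparts. All 4 groups overlapped, and the lines differed by -0.14 on the log2 scale (95% interval -0.41 to 0.12, limma adjusted p = 0.29). *CDKN1A* (p21), an inhibitor of the same family, was at 1.41 to 2.93 FPKM over all libraries. For RD-ES it was at 1.41 and 2.25 in control and 1.89 and 2.93 in eKD2, which overlap (log2 change 0.27, limma adjusted p = 0.68). For SK-N-MC it was at 1.89 and 1.51 in control and 2.26 and 2.67 in eKD2 (log2 change 0.36, limma adjusted p = 0.56). There both eKD2 libraries lay above both controls, as for 22.2% of all genes tested. The *CDK4* to *CDKN2A* ratio of FPKM was 20.7 and 13.4 in RD-ES control and 4.31 and 4.43 in SK-N-MC control, 3.90-fold apart in the means. For *CDK2* to *CDKN1B* the ratios were 2.69 and 2.74 against 2.32 and 2.25.

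*RB1* (chromosome 13, 48877880 to 49173572, plus strand), the substrate on which these kinases act, was at 22.0 and 18.7 FPKM in the RD-ES controls, 27.03 and 23.8 in their eKD2 counterparts, 58.7 and 58.6 in the SK-N-MC controls, and 55.4 and 48.9 in their eKD2 counterparts. It had the largest difference between the lines among the 10 genes. The control mean was 2.88-fold higher in SK-N-MC (58.6 ± 0.0979 against 20.4 ± 2.36 FPKM, SD, n = 2 each; log2 difference 1.49, SE 0.11, limma adjusted p = 1.5e-04). Reads of genes that overlap on the opposite strand cannot be told apart in these libraries. For *CDK4* these are *TSPAN31* and *MARCH9*, with means of 42.8 and 12.3 FPKM over the 8 libraries, and for *CDK2* it is *PMEL* (2.99 FPKM). Within the *RB1* extent given above the highest is *RCBTB2* (2.79 FPKM). The *RB1* locus of the expression matrix ends earlier, at base 49056122, and whether *RCBTB2* reads entered the *RB1* value was not tested. The *CDK4* to *RB1* ratio was 24.1 and 29.4 in RD-ES control and 5.53 and 5.39 in SK-N-MC control.

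**Figure D2:**
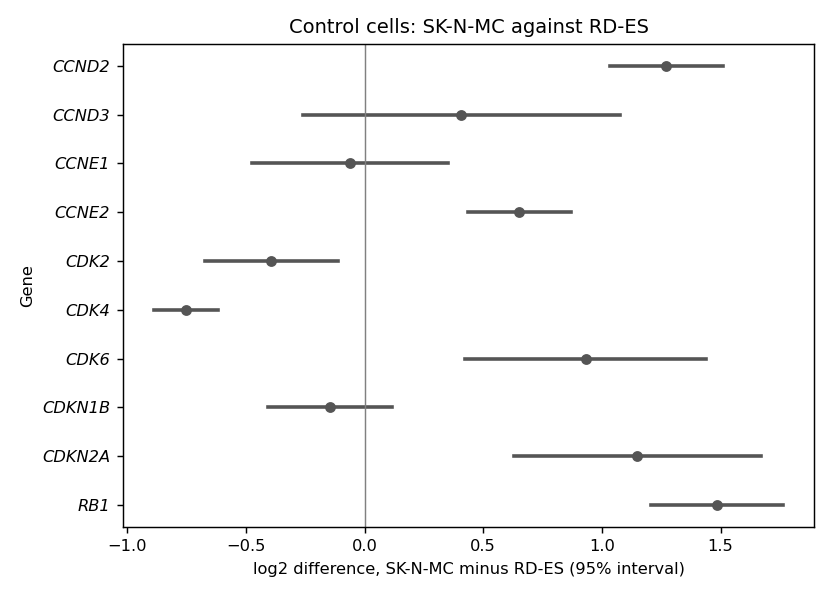
Difference between SK-N-MC and RD-ES control cells for each gene on the log2(FPKM + 1) scale, with points at the limma estimate and bars at its 95% interval (2 libraries per line). *RB1*, *CCND2*, *CDKN2A*, *CDK6* and *CCNE2* lie right of 0, *CDK4* and *CDK2* lie left of it, and the intervals of *CCND3*, *CCNE1* and *CDKN1B* cover it.

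The eKD2 comparison asked how these genes stood once *LOXHD1* had been silenced. None of the 10 members passed the adjusted threshold in either line (limma), where the share of all genes tested that passed was 0.343% (RD-ES) and 0.323% (SK-N-MC). At an unadjusted p under 0.05 there was 1 member in RD-ES (*RB1*, higher) and 1 in SK-N-MC (*CCNE2*, lower), against 12.3% and 13.0% of all genes tested (8.49% higher in RD-ES, 7.29% lower in SK-N-MC), so the members' counts lay near the background. The median log2 change of the members was -0.020 (RD-ES) and -0.043 (SK-N-MC), beside 0.031 and -0.0049 over all genes tested. In bulk RNA a lower level in each cell and fewer cells in the phase that carries the transcript cannot be told apart.

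In RD-ES both eKD2 libraries lay outside the control range for 5 of the 10 members, against 39.3% of all genes tested. *CCND2*, *CDK6* and *RB1* lay above both controls, where 24.2% of all genes did, and *CCNE2* and *CDK2* below, where 15.1% did. In SK-N-MC this held for 3 of 10, against 47.3% of all genes, with *CCNE2*, *CDKN2A* and *RB1* below both controls (25.1% of all genes) and none above (22.2%). *CCNE2* was thus the 1 member on the same side in both lines. Over all genes tested, 4.03% lay below both controls in each line. *RB1* was on opposite sides, as were 10.2% of all genes tested. With 2 libraries a side, the smallest two-sided p of an exact permutation test is 0.333, and the p-values given are therefore those of limma.

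**Figure D3:**
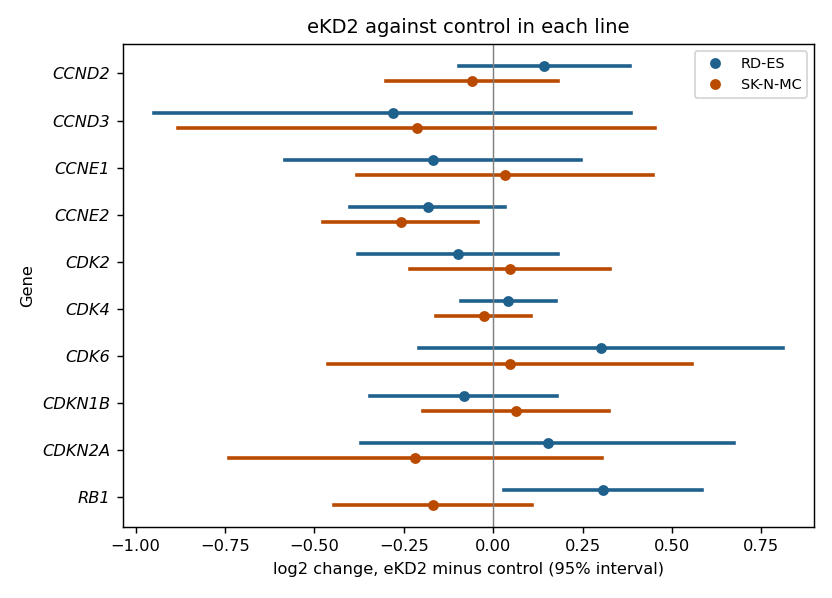
Change between eKD2 and control cells of each gene on the log2(FPKM + 1) scale in RD-ES (blue) and SK-N-MC (orange), with limma estimates and 95% intervals (2 libraries per group). Of the 20 intervals, those of *RB1* in RD-ES and *CCNE2* in SK-N-MC do not cover 0, and neither gene passed after adjustment.

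For *CCNE2* the mean of the RD-ES eKD2 cells was 0.873 times that of the controls (17.3 ± 0.653 against 19.8 ± 1.99 FPKM), and for SK-N-MC the factor was 0.831 (26.3 ± 0.345 against 31.7 ± 0.722 FPKM; SD, n = 2 each). The log2 changes were -0.18 (SE 0.088, limma adjusted p = 0.47) and -0.26 (SE 0.088, limma adjusted p = 0.31). Leaving out any 1 library gave changes of -0.28 to -0.086 (RD-ES) and -0.28 to -0.24 (SK-N-MC). *CCNE2* overlaps annotated genes on the opposite strand, among them *INTS8* and *NDUFAF6*. *INTS8* was at 172 and 169.9 FPKM in the SK-N-MC controls and 147 and 138 after eKD2, and at 89.1 and 86.3 against 92.3 and 86.4 in RD-ES. *NDUFAF6* was at 35.8 and 39.4 FPKM in the RD-ES controls and 33.5 and 29.9 after eKD2, and at 47.9 and 53.3 against 49.5 and 41.1 for SK-N-MC. *INTS8* thus lay below both controls in SK-N-MC and overlapped them in RD-ES, *NDUFAF6* lay below both in RD-ES and overlapped them in SK-N-MC, and the part of shared reads in *CCNE2* was not tested.

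The 5 genes with the pattern most like that of *CCNE2*, by Euclidean distance of log2 values centred on each gene's mean over the 8 libraries, were *CDCA7* (distance 0.18), *ZNF48* (0.19), *ZNF304* (0.19), *SPTAN1* (0.20) and *FPGT* (0.22), out of 15174 compared. *CDCA7* was at 44.4 and 41.4 FPKM in the RD-ES controls, 39.3 and 37.3 in their eKD2 counterparts, 63.8 and 65.1 in the SK-N-MC controls, and 59.0 and 56.4 in their eKD2 counterparts. Such likeness reflects the line difference and the eKD2 difference together.

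For *RB1* the log2 change was 0.31 in RD-ES eKD2 (95% interval 0.030 to 0.58, limma adjusted p = 0.37) and -0.17 after eKD2 of SK-N-MC (95% interval -0.45 to 0.11, limma adjusted p = 0.59). The eKD2 mean was 1.25 times the control mean for RD-ES (25.4 ± 2.29 against 20.4 ± 2.36 FPKM) and 0.890 times for SK-N-MC (52.2 ± 4.58 against 58.6 ± 0.0979 FPKM; SD, n = 2 each). Without 1 library at a time the change in RD-ES was 0.19 to 0.42 and that in SK-N-MC -0.26 to -0.080. The difference between the changes, tested as an interaction, was -0.48 on the log2 scale (SE 0.16, limma adjusted p = 0.30). None of the 10 passed that test after adjustment (0.244% of all genes did), and *RB1* was the 1 member with an unadjusted p under 0.05, where 13.5% of all genes had one (9.16% negative).

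The other 8 members had limma adjusted p-values of 0.59 to 0.82 in RD-ES and 0.74 to 0.98 in SK-N-MC. How far a change is bounded differed among them. For *CDK4* the 95% interval of the log2 change was -0.091 to 0.18 in RD-ES and -0.16 to 0.11 in SK-N-MC. For *CCND2* it was -0.097 to 0.38 and -0.30 to 0.18, and for *CDKN1B* -0.34 to 0.18 and -0.20 to 0.33. For *CCND3* the interval spanned -0.95 to 0.39 and -0.88 to 0.45, and for *CDKN2A* -0.37 to 0.67 and -0.74 to 0.30. Several of these values rest on 1 library. Without RD-ES control replicate 2 the unadjusted p fell under 0.05 for 4 members in RD-ES. These were *CCND2* (log2 change 0.26), *CCNE2* (-0.28), *CDK6* (0.58) and *CDKN2A* (0.48), with limma adjusted p-values of 0.35 to 0.41. *CDKN2A* stood at -0.18 in RD-ES without RD-ES control replicate 1.

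The other G1 regulators comprised 16 genes, of which 15 were tested and none passed the adjusted threshold in either line (limma). The RD-ES comparison had 2 higher at an unadjusted p under 0.05 (8.49% of all genes tested were), and the SK-N-MC comparison 1 higher and 2 lower (5.71% and 7.29% of all genes). *CCNH*, the cyclin of the kinase that activates CDKs, was at 51.3 and 51.1 FPKM in the RD-ES controls and 60.1 and 60.1 after eKD2 (log2 change 0.23, limma adjusted p = 0.23). *CDKN1C* (p57) was at 0.378 and 0.119 FPKM in the RD-ES controls and 1.23 and 0.800 after eKD2 (log2 change 0.69, adjusted p = 0.23 by limma). In SK-N-MC it was at 6.85 and 6.94 in the controls and 9.79 and 8.70 after eKD2 (adjusted p = 0.44 by limma). *CDKN1C* passed the filter with a mean of 4.35 FPKM, which came mostly from SK-N-MC. Its RD-ES values lie near the floor, yet it is 1 of the 2 genes counted as higher there. Both eKD2 libraries were above both controls in each line, and the share of all genes doing so was not counted. *CDC25A*, the phosphatase that activates CDK2, was at 14.8 and 16.3 FPKM in the SK-N-MC controls and 12.0 and 12.9 after eKD2 (limma adjusted p = 0.26). The INK4 inhibitor *CDKN2C* (p18) was at 43.3 and 45.0 FPKM in the SK-N-MC controls and 36.7 and 38.5 after eKD2, and *CDKN2D* (p19) was at 8.71 and 8.46 in control and 10.2 and 12.4 in eKD2 (limma adjusted p = 0.32 and 0.31). For RD-ES *CDKN2C* was at 33.3 and 36.1 FPKM in control and 31.7 and 29.2 in eKD2 (limma adjusted p = 0.43). *CDC25A* and *CDKN2C* thus lay below both controls in each line, as did 4.03% of all genes tested.

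Pocket proteins, E2F factors and subunits of the DREAM complex, a repressor of cell cycle genes, were 17 of 17 tested. None passed the adjusted threshold (limma), and at an unadjusted p under 0.05 there were 1 higher and 2 lower in RD-ES and 3 lower in SK-N-MC, where the shares of all genes tested were 8.49%, 3.79% and 7.29%. *RBL1* (p107), a pocket protein like *RB1*, was at 9.97 and 10.6 FPKM in the RD-ES controls, 11.9 and 12.2 in their eKD2 counterparts, 14.9 and 15.1 in the SK-N-MC controls, and 12.3 and 11.1 in their eKD2 counterparts. It thus stood on opposite sides of its controls in the lines, as *RB1* did. By limma, its log2 change was 0.21 for RD-ES, with an adjusted p of 0.39, and -0.33 for SK-N-MC, with an adjusted p of 0.21. *E2F7*, an E2F that represses, was at 18.1 and 17.0 FPKM in the RD-ES controls and 15.5 and 14.4 after eKD2, and at 18.7 and 20.9 against 14.0 and 13.9 in SK-N-MC. It lay below both controls in both lines, as did 4.03% of all genes tested (log2 changes -0.22 and -0.47, limma adjusted p = 0.41 and 0.15). *LIN52*, a DREAM subunit, was at 16.9 and 16.9 FPKM in the RD-ES controls and 9.68 and 11.4 after eKD2 (log2 change -0.64, limma adjusted p = 0.19), and *TFDP2*, an E2F partner, was at 169.8 and 188 FPKM in the SK-N-MC controls and 152 and 148 after eKD2 (limma adjusted p = 0.28).

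**Figure D4:**
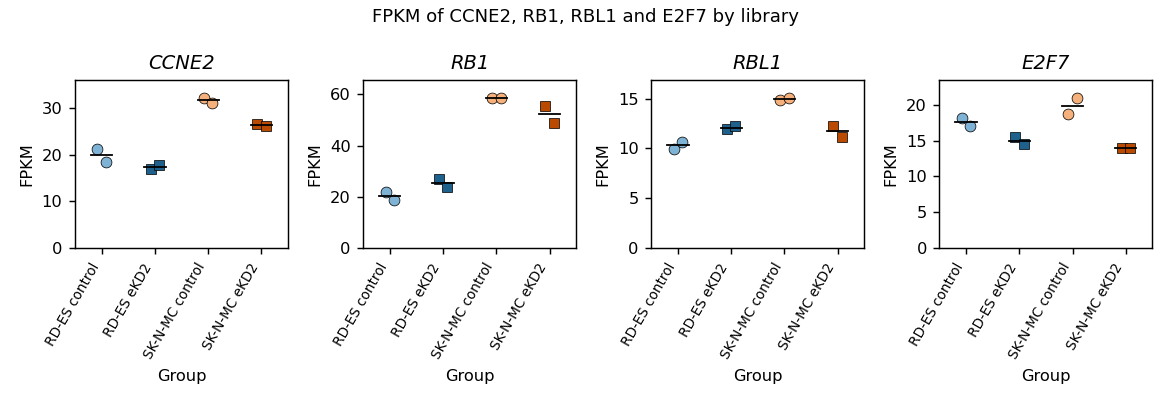
FPKM of *CCNE2*, *RB1*, *RBL1* and *E2F7* in each library (2 points per group, bar at the mean, axes from 0). *CCNE2* and *E2F7* have both eKD2 points below both control points in each line, whereas for *RB1* and *RBL1* they lie above in RD-ES and below in SK-N-MC. Of all genes tested, 4.03% lay below both controls in each line and 10.2% lay on opposite sides.

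Downstream, 24 E2F target genes of the G1/S transition were all tested. Many also serve as S phase markers, and the list was written with the lower level of such markers in SK-N-MC eKD2 known, so its direction there is not independent evidence. None passed the adjusted threshold in either line (limma). In SK-N-MC, 22 of 24 had a negative log2 change with a median of -0.24, beside -0.0049 over all genes. Of the 24, 11 were lower at an unadjusted p under 0.05, where 7.29% of all genes were. In RD-ES, 13 were lower and 11 higher, with a median of -0.042, and 3 were lower at an unadjusted p under 0.05, where 3.79% of all genes were. *MCM6*, a subunit of the replicative helicase, was at 102 and 94.6 FPKM in the RD-ES controls and 89.3 and 77.7 after eKD2, and for SK-N-MC at 98.6 and 93.0 against 75.6 and 74.5 (limma adjusted p = 0.37 and 0.21). *ORC1* and *SLBP*, of origin licensing and histone RNA, had log2 changes of -0.23 and -0.15 (RD-ES) and of -0.25 and -0.19 (SK-N-MC), with limma adjusted p-values of 0.28 to 0.40. *CDC6*, which loads the helicase, was at 61.1 and 67.3 FPKM in the SK-N-MC controls and 47.9 and 48.5 after eKD2, and *RRM2*, a subunit of ribonucleotide reductase, was at 263 and 274 against 202 and 208 (limma adjusted p = 0.17 and 0.18). In RD-ES their eKD2 libraries were at 58.2 and 52.6 FPKM (*CDC6*, control 51.8 and 54.7) and 254 and 218 FPKM (*RRM2*, control 217 and 229.8), overlapping the controls.

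Of 11 cyclins and kinases of S, G2 and M phase, none passed the adjusted threshold (limma), and at an unadjusted p under 0.05 there were 1 higher and 2 lower in RD-ES and 3 lower in SK-N-MC, beside the same shares of all genes (8.49%, 3.79% and 7.29%). *CCNB1*, the mitotic cyclin, was at 339 and 350.4 FPKM in the RD-ES controls and 283 and 307 after eKD2, and for SK-N-MC at 269 and 254 against 212 and 223 (log2 changes -0.22 and -0.26, limma adjusted p = 0.28 and 0.21). *PLK1* was at 109 and 116 against 83.4 and 92.7 FPKM in RD-ES (limma adjusted p = 0.25), and *AURKB*, for SK-N-MC, at 56.9 and 57.8 against 42.8 and 47.8 FPKM (limma adjusted p = 0.32). *CDC25C*, the phosphatase that starts mitosis, was at 16.1 and 13.8 against 20.1 and 17.0 FPKM (RD-ES) and 19.5 and 19.8 against 15.7 and 16.1 FPKM (SK-N-MC), with no call in either line (limma adjusted p = 0.37 and 0.36).

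**Figure D5:**
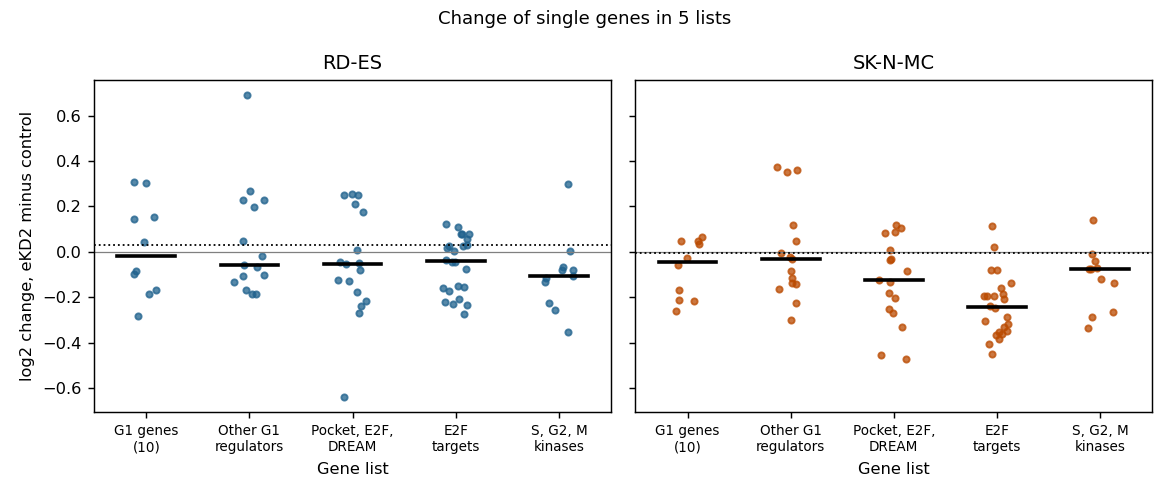
Log2 change between eKD2 and control of each tested gene (points) in 5 lists, in RD-ES (left) and SK-N-MC (right), with a black bar at the list's median and a dotted line at the median of all 15175 genes tested. The G1 genes lie around 0 in both lines (medians -0.020 and -0.043), and the E2F targets have medians of -0.042 (RD-ES) and -0.24 (SK-N-MC).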

How the data were processed

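RNA was measured in 8 libraries (2 per group), which the study describes as biological duplicates, so p-values measure the spread between these samples. Per the study's methods and the labels' processing notes, the authors aligned single-end reads of poly-A selected, unstranded libraries to GRCh37 (hg19) with STAR, and deposited FPKM computed with cufflinks and cuffnorm. The read counts behind their DESeq2 test were not used here. Samples were grouped by the labels' cell line and treatment. The file has no columns of other samples (0) and no columns of comparisons.

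The 15175 of 60332 genes whose FPKM averaged at least 1 were compared as log2(FPKM + 1), which understates the change of low genes, with limma 3.58.1 in R 4.3.3 (lmFit, contrasts.fit, eBayes with trend, 4 group means in 1 fit of all 8 libraries) and Benjamini-Hochberg adjustment over all genes tested, at a threshold of 0.05. There were 4 comparisons: eKD2 against control in each line, the lines' controls against each other, and the interaction. They share libraries. The steps were tested on simulated data. Figures were drawn with matplotlib 3.10.9 in Python 3.11.15. Replicates correlated with r of 0.937 to 0.945 across genes, which are not independent.

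The members and lists were chosen with earlier results of these data known. Named besides the 10 members were *LOXHD1*, *CCND1*, *CDKN1A*, *CDKN2B*, *MTAP*, any list gene with an adjusted p under 0.05 in an eKD2 comparison, the 3 genes of smallest p per list and line, and the 5 genes of pattern nearest to the member with the smallest eKD2 p. *CDKN2B-AS1*, *CD99*, *NKX2-2*, *NR0B1*, *CD3E*, *PTPRC*, *EPCAM*, *INTS8*, *NDUFAF6*, *TSPAN31*, *MARCH9*, *PMEL* and *RCBTB2* are named as markers, neighbours or overlapping genes. *RBL2* is named as a pocket protein gene beside *RB1* and *RBL1*. The symbol *PECAM1* was the 1 of 11 markers of other cells not matched. Positions are from GENCODE v44lift37 and promoter sequences from RefSeq. Depth was estimated from low FPKM values of genes with 1 transcript. With 200 bases taken off the length, 78.8% to 82.9% of values up to 3.5 reads came within 0.05 of a whole number, and any scaling by cuffnorm is included. Alternatives were another pseudocount (0.1), no filter, median and quantile scaling, each line alone, no trend, a replicate block and each library left out.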

Additional observations from a re-analysis of the deposited data

Results flagged for a closer look

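Among the 10 members and the list genes whose eKD2 values the named genes rule selects, 4 had both eKD2 libraries on opposite sides of the controls in the lines. Each had an unadjusted p under 0.05 in the test of the difference (limma interaction), as had 13.5% of all genes tested. The sides, and the choice of the list genes, come from the same values as this test. Its p-values are therefore no separate support. The share of all genes that met both conditions was not counted. For *RB1* the interaction, coded as SK-N-MC change minus RD-ES change, was -0.475 on the log2 scale (limma adjusted p = 0.30). For *RBL1* it was -0.543 (limma adjusted p = 0.20) and for *CDC25C* -0.584 (limma adjusted p = 0.24), each with eKD2 above control in RD-ES and below it in SK-N-MC. For *CDKN2D* it was 0.421 (limma adjusted p = 0.36), with eKD2 below control in RD-ES (2.26 and 2.34 against 2.52 and 2.39 FPKM) and above it in SK-N-MC. Outside that selection, *POLA1* (-0.415, limma adjusted p = 0.23), *CHAF1A* (-0.442, limma adjusted p = 0.31) and *CD99* (0.326, limma adjusted p = 0.32) of the lists met both conditions as well. Of all genes tested, 10.2% stood on opposite sides in this way, and no gene of these 7 passed after adjustment.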

How the results depend on the processing

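With FPKM as deposited, 52 genes in all passed the adjusted threshold in RD-ES, 49 in SK-N-MC and 37 in the interaction (limma). With no filter on low values the numbers were 79, 118 and 66. With each line fitted alone they were 1 (RD-ES) and 13 (SK-N-MC). Leaving out 1 library at a time gave 27 to 71 in RD-ES, 12 to 76 in SK-N-MC and 54 to 81 in the interaction. None of the 10 members passed in an eKD2 comparison or the interaction under any of these settings. Of the 10, 1 had an unadjusted p under 0.05 in each of the eKD2 comparisons and in the interaction. In RD-ES this became 0 with quantile normalization and with each line alone, and 0 to 4 without 1 library, the 4 without RD-ES control replicate 2. With libraries scaled to a common median it was 1, but *CCNE2* in place of *RB1*. In SK-N-MC it was 0 to 1 without 1 library. In the interaction it was 0 with libraries scaled to a common median, 0 with quantile normalization, and 0 to 2 without 1 library, the 2 (*CCND2* and *CDKN2A*) without RD-ES control replicate 2. Between the lines 5 to 7 members passed. *CDK2* was lost under 4 settings and *CDK6* under 1, as given beside them. Median scaling moved the median of all genes between the lines from 0.065 to -0.042. *LOXHD1* in RD-ES had an adjusted p of 0.059 with that line alone.

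Replicate numbers showed no sign of pairing, since the deviations of libraries of the same number correlated with r = 0.056 (RD-ES) and 0.027 (SK-N-MC). With 2 libraries per group this cannot tell whether the samples were prepared in pairs. With a replicate block 11 genes passed in RD-ES, 5 in SK-N-MC and 7 in the interaction, and 0 members had an unadjusted p under 0.05 in SK-N-MC.

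The changes below turned direction, and none of them was past the threshold as reported. Median scaling put *CDK4* at -0.030 and *CDC6* at -0.016 in RD-ES, and the interaction of *CCNE2* at 0.0053 and of *CDK4* at 0.015. Quantile normalization put *CDK6* at -0.0095 in SK-N-MC and the interaction of *CCND1* at -0.016. A pseudocount of 0.1 put the interaction of *LOXHD1* at 0.42, against -0.27. Without 1 library the log2 change in RD-ES ranged from -0.17 to 0.0035 for *CDKN1B*, -0.18 to 0.48 for *CDKN2A*, -0.12 to 0.016 for *TFDP2*, -0.017 to 0.13 for *CDC6*, -0.032 to 0.19 for *RRM2* and -0.22 to 0.69 for *CDKN2B-AS1*. In SK-N-MC it ranged from -0.12 to 0.0031 for *CCND2*, -0.57 to 0.15 for *CCND3*, -0.17 to 0.23 for *CCNE1*, -0.089 to 0.18 for *CDK2*, -0.069 to 0.015 for *CDK4*, -0.077 to 0.17 for *CDK6*, -0.033 to 0.16 for *CDKN1B*, -0.035 to 0.21 for *LIN52*, -0.16 to 0.077 for *MTAP* and -0.22 to 0.27 for *CDKN2B-AS1*. The line difference of *CCNE1* ranged from -0.26 to 0.14. The interaction ranged from -0.29 to 0.43 for *CCND3*, -1.8e-04 to 0.40 for *CCNE1*, -0.17 to 0.022 for *CCNE2*, -0.53 to 0.019 for *CDK6* and -0.12 to 0.19 for *CCND1*. With 2 libraries per group, changes the size of those of *CCNE2* and *RB1* did not pass adjustment over 15175 genes, and the cause of the other moves was not tested.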
